A study of Mus musculus with 191 samples.

Results

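The 6 genes described here, proposed as recurrent epithelial responders to inhaled, gavaged and dietary chemicals in mouse lung, are Cxcl17, Aoc1, Acox2, Bcl2l14, Gabrp and Cldn10. They are 6 of 18194 genes that have a probe set naming 1 gene on the array, and all 6 were among the 13524 genes tested. They were chosen by their differences between exposed and control lungs in these same arrays, because they change with many chemicals. Those differences are therefore given as a description. A call marks where a difference passed the threshold that was applied to all genes, and for these 6 genes it is not read as evidence. Tests are read only for measures that the choice did not use. Across 26 chemicals the 6 genes did not move as 1 set. Cxcl17, Aoc1 and Acox2 were called higher in 10, 12 and 9 of the 34 exposed groups and lower in none, while Gabrp and Cldn10 fell with the 2 highest concentrations of naphthalene.

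Affymetrix mouse expression arrays measured lung RNA of female B6C3F1 mice, 18 weeks old at the end of 13 weeks of exposure. The 133 exposed arrays form 34 groups and the 58 control arrays form 14 sets, with 3 to 5 arrays each. No transgene or deletion is named for any mouse. P-values measure the spread between these arrays.

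Gavage in corn oil gave benzene (BENZ, 100 mg/kg), coumarin (COUM, 200 mg/kg), 1,2-dibromoethane (DBET, 62 mg/kg), 1,4-dichlorobenzene (DCBZ, 600 mg/kg), 1,2,3-trichloropropane (TCPN, 60 mg/kg), iodoform (IODO, 93 mg/kg), trichlorofluoromethane (TCFM, 3925 mg/kg) and 2,3-benzofuran (BFUR, 240 mg/kg). Gavage in distilled water gave 2-chloromethylpyridine hydrochloride (CMPH, 250 mg/kg) and N-methylolacrylamide (MACR, 50 mg/kg). The diet carried 1-amino-2,4-dibromoanthraquinone (ABDQ, 20000 ppm), tris(2,3-dibromopropyl)phosphate (TDPP, 1000 ppm), 2,2-bis(bromomethyl)-1,3-propanediol (BBMP, 1250 ppm), 4-nitroanthranilic acid (NAAC, 10000 ppm), malathion (MALA, 14800 ppm per the treatment notes, while the array titles give a higher concentration), diazinon (DIAZ, 200 ppm), pentachloronitrobenzene (PCNB, 8187 ppm), N-(1-naphthyl)ethylenediamine dihydrochloride (NEDD, 2000 ppm) and 1,5-naphthalenediamine (NAPD, 2000 ppm). Inhaled agents were tetrafluoroethylene (TFEL, 1250 ppm), tetrafluororethane (TFEA, 50000 ppm), ethylene oxide (ETOX, 100 ppm), propylene glycol mono-t-butyl ether (PGBE, 1200 ppm) and vanadium pentoxide (VANP, 2 mg/m3). Methylene chloride was inhaled at 100, 500, 2000, 3000 and 4000 ppm (MECL-100 to MECL-4000) and naphthalene at 0.5, 3, 10, 20 and 30 ppm (NPTH-0.5 to NPTH-30).

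Controls received the vehicle alone: air (ACO1, ACO3, ACO4, ACO5), corn oil (CCO2 to CCO6 and the set named CornOil), chow (FCO1, FCO2 and the set named RodentChow) or distilled water (WCO1). The titles name 4 array batches, and each exposed group was set only against control sets of its own vehicle and batch. The labels do not say which control set ran beside which chemical. A gene was called where limma gave an adjusted p under 0.05, in the same direction, against every such set. The number of such sets differed between groups, so the rule was stricter where there were more. Counts of calls are therefore not on the same scale in all groups. Against the mean of the sets instead, 29041 calls were made over all genes, compared with 11869 by this rule. Values are the deposited ones, taken as log2. The lung markers Sftpc, Scgb1a1 and Ager stood at or above the 99.96th percentile of genes in every array, and the ciliated cell regulator Foxj1 had a median percentile of 79.2. RNA integrity numbers were given for all but 32 arrays, and 2 control arrays were under 7 (6.1 in ACO3 and 6.7 in CCO5).

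The conducting airways are lined mainly by club cells, which secrete protective proteins and oxidize foreign chemicals, and by ciliated cells, which move mucus. Naphthalene is a classical club cell toxicant in the mouse, because club cell cytochrome P450 turns it into a reactive epoxide. Epithelia answer reactive chemicals in part through the transcription factor NRF2, which binds antioxidant response elements and raises detoxifying enzymes, and in part by changing what they secrete and transport. Cxcl17 encodes a chemokine of mucosal surfaces. Aoc1 encodes diamine oxidase, which degrades histamine and putrescine. Acox2 encodes the peroxisomal oxidase for branched-chain acyl-CoA and bile acid intermediates. Bcl2l14 encodes a member of the Bcl-2 family of cell death regulators. Gabrp encodes the pi subunit of the GABA-A receptor, a ligand-gated chloride channel, and Cldn10 encodes a claudin that forms ion-selective paracellular channels in tight junctions.

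In the GRCm38.p6 annotation of RefSeq, Aoc1 lies at chr6:48895255-48909188, Bcl2l14 at chr6:134396329-134438724, Cxcl17 at chr7:25400053-25412886, Gabrp at chr11:33550781-33578978, Acox2 at chr14:8225511-8259019 and Cldn10 at chr14:118787871-118874525. All 6 are protein-coding. Each was read from its probe set of highest mean. Gabrp and Bcl2l14 have 1 other probe set each. The other Gabrp probe set kept the direction of all 3 Gabrp calls, while the other Bcl2l14 probe set was above the median of all values in only 14 arrays.

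The RefSeq promoter table, in GRCm38.p6, matched 5 of the 6 genes, with 9 annotated starts, and holds no entry for Cxcl17. The 250 bases before 1 start of Acox2, Aoc1, Gabrp and Cldn10 are printed because the first pair rose and the second pair fell in the same naphthalene lungs. Capitals mark matches, on either strand, to any of 7 motifs: the antioxidant response element TGACNNNGC, the xenobiotic response element core GCGTG, the forkhead motif TGTTTAC, the NKX2-1 motif CAAGTG, the AP-1 motif TGANTCA, an NF-kB motif of GGGA and CC with any 4 bases between, and a DR1 motif of AGGTCA repeated after 1 free base.
Acox2, chr14:8259020-8259269, minus strand: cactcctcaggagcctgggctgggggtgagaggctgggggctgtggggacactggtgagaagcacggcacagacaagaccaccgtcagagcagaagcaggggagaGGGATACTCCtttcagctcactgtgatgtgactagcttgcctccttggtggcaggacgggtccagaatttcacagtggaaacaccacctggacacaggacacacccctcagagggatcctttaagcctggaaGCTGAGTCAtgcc
Aoc1, chr6:48895005-48895254, plus strand: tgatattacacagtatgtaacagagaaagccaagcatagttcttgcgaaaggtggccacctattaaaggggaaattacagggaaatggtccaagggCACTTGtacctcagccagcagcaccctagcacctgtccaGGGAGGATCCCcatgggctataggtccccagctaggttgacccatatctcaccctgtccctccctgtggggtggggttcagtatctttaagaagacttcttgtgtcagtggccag
Gabrp, chr11:33578958-33579207, minus strand: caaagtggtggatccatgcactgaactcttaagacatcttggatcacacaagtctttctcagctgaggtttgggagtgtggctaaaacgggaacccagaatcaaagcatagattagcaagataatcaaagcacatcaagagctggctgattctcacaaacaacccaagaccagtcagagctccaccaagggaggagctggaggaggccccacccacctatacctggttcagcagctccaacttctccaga
Cldn10, chr14:118787621-118787870, plus strand: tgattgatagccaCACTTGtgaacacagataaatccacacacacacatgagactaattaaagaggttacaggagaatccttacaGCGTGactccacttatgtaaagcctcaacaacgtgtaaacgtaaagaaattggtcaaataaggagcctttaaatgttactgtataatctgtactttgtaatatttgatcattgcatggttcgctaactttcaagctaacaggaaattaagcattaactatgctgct
The Acox2 window held an antioxidant response element, TGACTCAGC on the strand opposite the printed one, beginning 13 bases before the start. This element overlaps an AP-1 match, TGAGTCA, that begins 11 bases before the start, and an NF-kB match lies further upstream. The window of the other Acox2 start overlaps this one and holds the same element, 193 bases before that start. Of 32851 promoter windows of the same length, 10.2% held an antioxidant response element and 6.75% an AP-1 match. The Aoc1 window held an NKX2-1 match and an NF-kB match read from both strands, and its other start, 48904736 to 48904985 on chromosome 6, held 1 AP-1 match. The Cldn10 window held an NKX2-1 match and a xenobiotic response element core, as did the window of its other start. The Gabrp window held none of the 7. Among all windows 11.6% held an NKX2-1 match, 28.2% a xenobiotic response element core, 17.6% an NF-kB match, 3.17% a forkhead match and 0.0335% a DR1 match. A match describes letters only and is no evidence of binding.

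Over all genes and all 34 exposed groups, 1.86% of gene and group pairs were called higher and 0.722% lower, so 72% of calls were higher. After quantile normalization within each batch the share of higher calls was 53.7%, and the median change that it made to the log2 differences of single genes was -0.12 with BBMP, -0.13 with NAAC and -0.16 with TCPN. The Aoc1 and Bcl2l14 calls with BBMP and the Aoc1 and Acox2 calls with TCPN were lost under it. The 6 genes gave 38 higher calls and 4 lower calls, in 15 groups of 11 chemicals. Aoc1, with 12 higher calls, shared the highest count of any gene with 2 others. Cxcl17, with 10, was reached or passed by 7 genes including itself, and Acox2, with 9, by 14. Bcl2l14 had 6 higher calls. Gabrp had 1 higher call and 2 lower calls, and Cldn10 had 2 lower calls, a count that 287 genes reached, so neither was recurrent by this rule. In 30 of the 38 higher calls every exposed array stood above every control array, and in all 4 lower calls every exposed array stood below. Over all genes, counting pairs called or not, every exposed array stood above every control array in 4.28% of pairs and below in 2.42%. On that footing, of 34 groups, Cxcl17 stood above in 12, Acox2 in 9, Aoc1 in 6, Bcl2l14 in 5, Gabrp in 2 and Cldn10 in 1. Cldn10 stood below in 4, Gabrp in 2 and Aoc1 in 1. Since the genes were chosen on these differences, nothing is read from their excess over all genes.

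**Figure D1:**
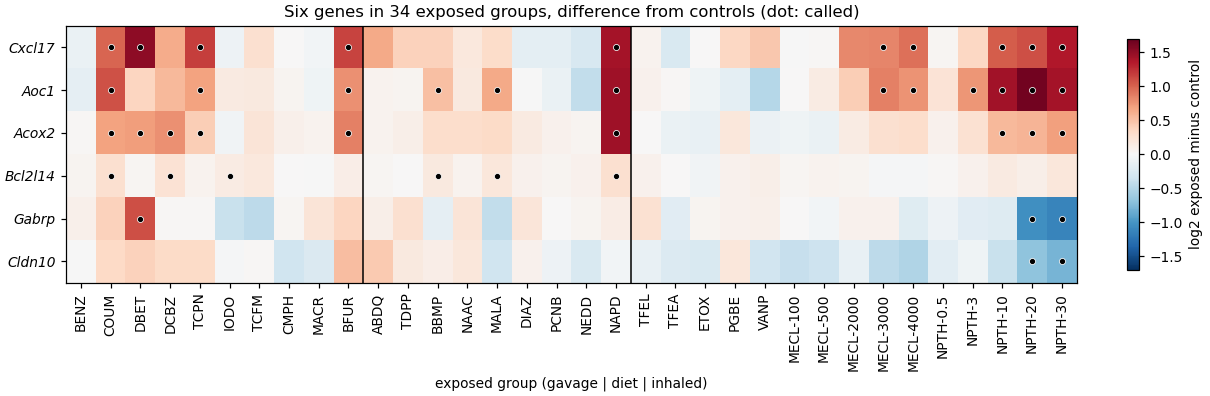
Log2 difference from controls (colour) of the 6 genes (rows) in the 34 exposed groups (columns, split by lines into gavage, diet and inhaled), with a black dot where the gene was called. Cxcl17, Aoc1 and Acox2 are red in overlapping sets of groups, Bcl2l14 is pale throughout, and Gabrp and Cldn10 are blue at NPTH-20 and NPTH-30.

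Cxcl17 was highest with 1,2-dibromoethane, where 2.31% of genes were called higher. The 4 DBET arrays stood at 3.06, 3.95, 3.76 and 3.85, and the 8 corn oil arrays of CCO2 and CCO3 ran from 1.85 through a median of 2.15 to 2.48. Every exposed array was above every control array, with a difference of 1.52 ± 0.19 (log2, SE), or 2.86-fold. Dietary 1,5-naphthalenediamine, where 1.04% of genes were called higher, gave 3.73, 3.70 and 3.69 in its 3 arrays against 2.03, 2.57 and 2.27 in the RodentChow set, a difference of 1.41 ± 0.25. The 3 NAPD arrays lay close together and clear of all 3 controls. With NPTH-30, where 1.58% of genes were called higher, the arrays stood at 3.23, 3.70, 3.29 and 3.42 against 1.55 to 2.43 (median 1.97) in the 14 air controls, a difference of 1.36 ± 0.17. Trichloropropane (TCPN, 7.73% of genes called higher) gave 3.07, 3.47, 3.08 and 3.30 against 1.44 to 2.67 (median 2.02) in 10 corn oil arrays, again without overlap. Coumarin (4.06% of genes) gave 3.35, 3.33, 3.14 and 2.72, a difference of 0.995 ± 0.19 from CCO2 and CCO3.

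2,3-Benzofuran (1.66% of genes called higher) gave Cxcl17 values of 3.97, 3.00 and 2.98 against 2.43, 1.97 and 2.10 in the CornOil set. The difference was 1.15 ± 0.25, and 0.82 without BFUR replicate 1, when it was no longer called. Methylene chloride at 2000 ppm was the largest Cxcl17 difference among inhaled agents that was not called, at 0.82 ± 0.17 with all 4 arrays above all 14 controls. In 26 of the 34 groups the Cxcl17 difference was above 0, and its lowest was -0.28 ± 0.25 with NEDD. NEDD carries a naphthyl ring, as NAPD does, at the same dietary concentration of 2000 ppm and against the same 3 chow controls. Its 3 Cxcl17 arrays stood at 1.92, 1.94 and 2.18, all below every NAPD array. The difference between these compounds was not tested, since it was picked out after the values were seen.

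Aoc1 was highest with inhaled naphthalene. Its 4 arrays stood at 0.71, 1.32, 0.94 and 1.13 at 3 ppm, where only 0.0739% of genes were called higher. At 10 ppm they stood at 1.76, 1.61, 1.68 and 1.76, with 0.421% of genes called higher. At 20 ppm they stood at 1.95, 1.76, 2.23 and 1.70, with 1.12% of genes called higher. The 14 air controls ran from -0.13 through a median of 0.31 to 0.85, so the 2 higher of these concentrations did not overlap them, while 1 array at 3 ppm did. The differences were 0.76 ± 0.14, 1.43 ± 0.14 and 1.64 ± 0.14, or 1.69-fold, 2.70-fold and 3.11-fold. Of the 10 genes called higher at 3 ppm, Aoc1 was the only one of the 6 followed here. This call at 3 ppm was lost in 5 of 18 fits that left out 1 array, when the difference was 0.66 to 0.75, and at an adjusted p under 0.01.

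Among other agents, NAPD gave 1.78, 1.96 and 1.76 against 0.16, 0.66 and 0.37 in its chow controls, a difference of 1.44 ± 0.21. Coumarin gave 1.63, 1.87, 0.95 and 1.56 against 0.24 to 0.67 (median 0.38), a difference of 1.09 ± 0.15 with no overlap. With MECL-3000 and MECL-4000, where 0.274% and 0.251% of genes were called higher, the differences were 0.86 ± 0.14 and 0.77 ± 0.14, and 3 of the 4 arrays in each stood above all air controls. The MECL-4000 call was lost in 2 of 18 fits that left out 1 array. Malathion (0.991% of genes) gave 1.56, 1.13, 1.14 and 0.19, so 1 array lay inside its chow controls, which ran from -0.17 to 0.74. BBMP (10.4% of genes) gave 1.16, 0.99, 0.98 and 0.37 against the same 4 chow arrays. These 2 calls were fragile: leaving out 1 array at a time ended the MALA call in 5 of 8 cases and the BBMP call in 7 of 8. The BFUR difference of 0.77 ± 0.21 lost its call in 3 of 6 such fits. It was 0.45 without BFUR replicate 1, 0.82 without CornOil replicate 1 and 0.68 without CornOil replicate 2. Vanadium pentoxide gave the lowest Aoc1 difference, -0.48 ± 0.14, with arrays at -0.21, -0.29, -0.08 and -0.26, and this was not called.

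Cxcl17 was at its highest with DBET, where Aoc1 was not called. The 4 DBET arrays had Aoc1 values of 0.68, 1.19, 0.70 and 0.56 against 0.24 to 0.67 in CCO2 and CCO3, a difference of 0.37 ± 0.15. Of these arrays 3 stood above all controls. Whether the 2 genes differed in their response to DBET was not tested.

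Acox2 was highest with NAPD. Its 3 arrays stood at 1.83, 1.91 and 1.80 against 0.26, 0.56 and 0.39, a difference of 1.44 ± 0.12, or 2.71-fold. BFUR came next, at 1.40, 1.18 and 1.24 against 0.53, 0.29 and 0.45, a difference of 0.85 ± 0.12. Dichlorobenzene (1.05% of genes called higher) gave 1.02, 0.99, 1.59 and 1.17 against 0.18 to 0.57 (median 0.44), a difference of 0.78 ± 0.09. Cxcl17 and Aoc1 were not called with this agent, with differences of 0.63 ± 0.18 and 0.55 ± 0.15. In all 9 groups where Acox2 was called, every exposed array stood above every control array. Its differences in the other called groups ran from 0.42 ± 0.09 with TCPN to 0.72 ± 0.09 with DBET. The TCPN call was lost after quantile normalization and with only the arrays of that contrast fitted.

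Bcl2l14 moved little. Leaving out 1 array at a time ended its call in 6 of 8 cases with BBMP, 5 of 8 with MALA and 2 of 6 with NAPD. The iodoform call was not covered by those fits. That call was lost without the filter on low values, with only the arrays of its contrast fitted and at an adjusted p under 0.01. It was also lost without replicate 1, 2 or 3 of every group. The 6 called Bcl2l14 differences ran from 0.14 ± 0.06 with iodoform, where 15.6% of genes were called higher, to 0.27 ± 0.06 with NAPD, which is 1.20-fold. Coumarin gave 0.24, 0.19, 0.29 and 0.32 against -0.10 to 0.07 in CCO2 and CCO3, without overlap. The DCBZ arrays stood at 0.14, 0.24, 0.27 and 0.28, and 1 of them overlapped the corn oil controls, which reached 0.21. The pooled SD of Bcl2l14 among arrays of 1 control set was 0.08, against 0.31 for Cxcl17.

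Gabrp was the only one of the 6 genes called in both directions. With DBET its arrays stood at 2.92, 3.06, 2.95 and 3.08 against 1.70 to 2.06 (median 1.94) in CCO2 and CCO3, a difference of 1.10 ± 0.16, or 2.14-fold. With NPTH-20, where 0.998% of genes were called lower, they stood at 0.77, 0.71, 1.05 and 0.85. With NPTH-30, where 0.466% of genes were called lower, they stood at 0.52, 1.07, 0.59 and 0.87. The 14 air controls ran from 1.61 through a median of 1.82 to 2.34, and neither group overlapped them. Gabrp was 2.06-fold lower at 20 ppm (-1.04 ± 0.14) and 2.17-fold lower at 30 ppm (-1.12 ± 0.14). At 10 ppm the arrays stood at 1.75, 1.84, 1.55 and 1.51 and 2 of them lay below all controls, with a difference of -0.22 ± 0.14 that was not called.

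Cldn10 was lower in the same 2 groups. Its arrays stood at 1.32, 1.26, 1.45 and 1.31 with NPTH-20 and at 1.11, 1.36, 1.22 and 1.18 with NPTH-30, against 1.61 to 2.57 (median 2.02) in the air controls. The differences were -0.68 ± 0.13 and -0.80 ± 0.13, or 1.60-fold and 1.74-fold lower. The NPTH-20 call was lost without NPTH-20 replicate 2, ACO3 replicate 3 or ACO4 replicate 4, when the difference ran from -0.65 to -0.62. The 3 air sets had Cldn10 means from 1.89 to 2.23, so the NPTH-30 difference ran from -1.01 to -0.67 with the set used. Malathion arrays stood at 1.51, 1.54, 1.65 and 1.56, below all 4 chow controls (1.79 to 2.02), with a difference of -0.34 ± 0.16 that was not called. With 1,2-dibromoethane, where Gabrp rose, the Cldn10 difference was 0.39 ± 0.14 and 3 of its 4 arrays overlapped the controls.

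**Figure D2:**
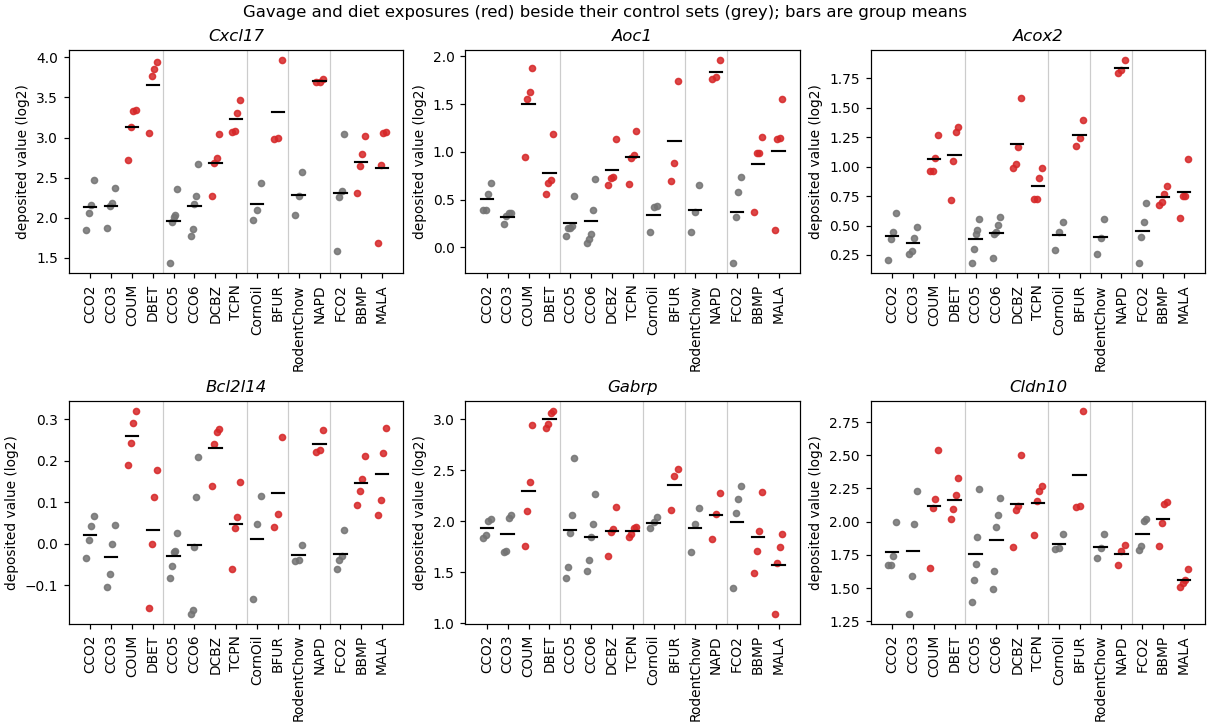
Deposited log2 value (vertical axis) of each array for the 6 genes, with bars at the group means and lines between sets of different vehicle or batch. Red points are the gavage or diet exposures COUM, DBET, DCBZ, TCPN, BFUR, NAPD, BBMP and MALA, and grey points are their control sets. The NAPD points for Cxcl17, Aoc1 and Acox2 and the DBET points for Gabrp lie clear of their controls, while Cldn10 points overlap theirs in most exposures.

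Both inhaled series gave Cxcl17, Aoc1 and Acox2 values that were higher at higher concentration. A straight line through the 20 naphthalene arrays put the change from 0.5 to 30 ppm at 1.22 ± 0.15 (log2, SE) for Cxcl17, 1.09 ± 0.21 for Aoc1 and 0.56 ± 0.095 for Acox2. The same line gave -1.15 ± 0.12 for Gabrp and -0.72 ± 0.08 for Cldn10, and 0.13 ± 0.05 for Bcl2l14. The median over all genes was -0.07. Aoc1 did not follow a straight line: its group difference was 1.64 at 20 ppm and 1.41 ± 0.14 at 30 ppm, and the fitted change was 1.39 against log10 concentration. Gabrp stayed within the control range at 0.5 ppm and in 3 of 4 arrays at 3 ppm.

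In the 21 methylene chloride arrays the fitted change from 100 to 4000 ppm was 1.05 ± 0.13 for Cxcl17, 0.85 ± 0.12 for Aoc1 and 0.43 ± 0.07 for Acox2. For Gabrp it was -0.11 ± 0.10, for Cldn10 -0.10 ± 0.10 and for Bcl2l14 -0.07 ± 0.04, and the median over all genes was 0.04. Cxcl17 stood at the control level at 100 and 500 ppm, with differences of -0.01 ± 0.16 and 0.02 ± 0.17, and at 0.82 ± 0.17, 0.84 ± 0.17 and 0.94 ± 0.17 at 2000, 3000 and 4000 ppm. Its calls at 3000 and 4000 ppm were lost in 7 and 5 of 18 fits that left out 1 array, with differences of 0.80 to 0.88 and 0.91 to 0.92, and both were lost without the 2 arrays of low RNA integrity. Aoc1 took a smaller step at 2000 ppm, 0.42 ± 0.14, with all 4 arrays inside the control range. The Cldn10 differences were -0.40 ± 0.12 at 100 ppm and -0.51 ± 0.13 at 4000 ppm, and none was called.

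**Figure D3:**
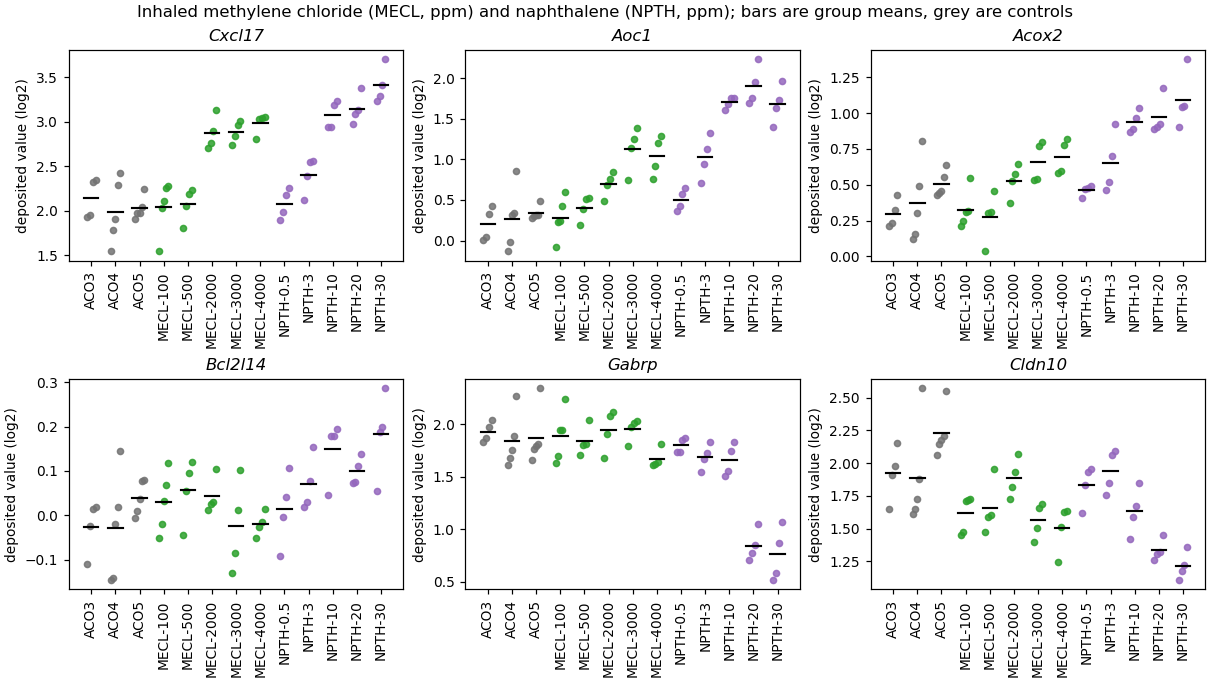
Deposited log2 value (vertical axis) of each array for the 6 genes in the 3 air control sets (grey), 5 methylene chloride groups (green) and 5 naphthalene groups (purple), with bars at the group means. Cxcl17 and Aoc1 are higher at the upper concentrations of both agents, while Gabrp and Cldn10 drop at 20 and 30 ppm naphthalene.

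The control sets were also compared with each other. Their arrays had served as controls in the comparisons that chose the genes, and a call there required every set. Between the 5 pairs of sets that shared vehicle and batch, none of the 6 genes was called by limma in any pair, and 3 of the 30 gene and pair tests had an unadjusted p under 0.05. Over all genes 0.0296% were called between CCO2 and CCO3, and 0% between CCO5 and CCO6 and within each pair of ACO3, ACO4 and ACO5. With so few genes called, the absence of a call among the 6 says little. The unadjusted p was under 0.05 for 282 to 758 genes in a pair. The largest difference among the 6 genes was 0.34 in size, for Cldn10, which was lower in ACO4 than in ACO5 by 0.34 ± 0.14 (limma, adjusted p = 1). For Cxcl17 the differences between control sets ran from -0.19 ± 0.19 to 0.15 ± 0.20.

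Animals that received the same treatment also differed from each other, and the choice of genes did not use these differences. Each gene in turn was taken as a covariate in a fit of all other genes with the 48 group means, so that a positive slope says that arrays of 1 group with more of it also had more of the other gene. Each fit called 4 or 5 of the 5 other genes: 28 of 30 slopes were positive and called, and 14 of the 15 pairs were called both ways. The exception was Gabrp with Bcl2l14, with slopes of 0.01 ± 0.03 and 0.14 ± 0.27 (limma, adjusted p = 0.698 and 0.688). These fits called many genes. A positive slope was called for 21.5% of all genes with Cxcl17, 24.1% with Aoc1, 44.6% with Acox2, 38.3% with Bcl2l14, 39% with Gabrp and 57.5% with Cldn10, so the Cldn10 fit says least.

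The tightest link was between Cxcl17 and Aoc1. Aoc1 was higher by 0.60 ± 0.05 per log2 unit of Cxcl17 (limma, adjusted p = 2.87e-21) and ranked 9th of 13523 genes by its t statistic, while Cxcl17 ranked 12th in the Aoc1 fit. Aoc1 rose with Acox2 by 1.10 ± 0.11 per unit (limma, adjusted p = 2.95e-16). Gabrp ranked lower, 406th with Cxcl17 (0.35 ± 0.06, limma adjusted p = 5.13e-06) and 3218th with Aoc1 (0.21 ± 0.08, limma adjusted p = 0.0477). Cldn10 rose with Gabrp by 0.40 ± 0.07 (limma, adjusted p = 8.54e-08).

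Control mice alone, 58 arrays in 14 sets, gave lower backgrounds for Cxcl17 and Aoc1. With Cxcl17 as covariate, 4 of the 5 other genes had a called positive slope, against 2.34% of all genes, and Bcl2l14 was the one not called. With Aoc1 it was 4 of 5 against 2.78%, with Gabrp not called (0.45 ± 0.16, limma adjusted p = 0.148). Bcl2l14 as covariate gave only 2 of 5 against 4.43%. Backgrounds stayed higher for the rest: 4 of 5 against 19.9% with Gabrp, 5 of 5 against 32.9% with Acox2 and 5 of 5 against 45.6% with Cldn10. The slope of Aoc1 on Cxcl17 was 0.57 ± 0.08 in these arrays (limma, adjusted p = 1.89e-06). Within single array batches it was 0.89 ± 0.10 in the batch of 18 arrays, 0.36 ± 0.13 in that of 36, 0.56 ± 0.09 in that of 52 and 0.72 ± 0.07 in that of 85. All but the second were called (limma, adjusted p = 0.174 in that one). The slope of Gabrp on Aoc1 differed in sign between batches, from -0.20 ± 0.26 to 0.36 ± 0.11, and was called only in the largest. Cldn10 on Gabrp was called only in the largest batch, at 0.76 ± 0.08, and ran from 0.22 ± 0.13 to 0.43 ± 0.29 in the others.

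The 5 genes of highest t statistic in each fit are named next. Those with Cxcl17 were Gsto1 (a glutathione transferase of the omega class), Anxa8, Dynlrb2 (a dynein light chain of cilia), Glipr1 and Cfap126 (a cilium-associated protein), with slopes from 0.51 ± 0.04 to 0.63 ± 0.04. With Aoc1 they were Prr29, Ttc39a, Mok, Gpx2 (a glutathione peroxidase) and Smim5. With Acox2 they were Cmbl, Oscp1, Mok, Ppil6 and Ak8. Gabrp was led by Cdhr3, a cadherin of ciliated cells, and by Slc38a1, Iqca, 4931406C07Rik and Ttc29. Bcl2l14 was led by Ggt6, Dtnb, Mfsd6l, Togaram2 and Ttc34. Cldn10 was led by Dpy30, Mcee, Tomm7, Bphl and Spcs1, with slopes from 0.69 ± 0.04 to 0.82 ± 0.04.

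Marker lists were counted in the same fits. Of 14 ciliated markers tested, 12 had a called positive slope with Cxcl17, 12 with Aoc1, 12 with Acox2 and 13 with Gabrp, and of 16 club cell markers 13, 11, 14 and 13. Bcl2l14 had 9 ciliated and 5 club cell markers called, and Cldn10 had 11 and 14. Of 15 genes of the NRF2 list, 14 were called with Cxcl17, 14 with Aoc1 and 14 with Acox2, but 7 with Gabrp, near its background of 39%. Bcl2l14 and Cldn10 had 13 and 14 of this list called. Of 12 alveolar type 1 markers, 1 was called with Cxcl17 and 0 with Aoc1. Acox2 had 3 of them called, Bcl2l14 0, Gabrp 6 and Cldn10 10. Of 15 alveolar type 2 markers, 3 were called with Cxcl17, 2 with Aoc1 and 9 with Acox2. Bcl2l14 had 2 of these called, Gabrp 3 and Cldn10 14, so called slopes were not confined to airway markers. The median ciliated slope was 0.30 with Cxcl17, against 0.04 over all genes. Goblet and mucous markers had larger median slopes, 0.81 with Cxcl17, 1 with Aoc1 and 1.06 with Acox2. Of 11 tested, 8, 9 and 8 had a called positive slope. With Bcl2l14 2 of the 11 did, with Gabrp 4 were positive and 2 negative, and with Cldn10 1 and 3. Among marker means, only the ciliated one was added as a covariate below. Markers of tissues beside the airway also moved with Cxcl17 and Aoc1: 10 of 12 cardiac muscle, 6 of 7 adipose and 8 of 14 smooth muscle and matrix markers had a called positive slope with each. With Gabrp those counts were 0, 1 and 3, and with Cldn10 0, 0 and 6. The part of these tissues in the slopes was not tested. In whole lung RNA more cells of a type and more RNA per cell cannot be told apart.

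The mean of the ciliated markers was added to each fit, an alternative chosen after the first slopes were seen. Aoc1 still rose with Cxcl17, by 0.43 ± 0.07 (limma, adjusted p = 1.24e-06), and it was the only one of the 5 called in that fit, where 5.44% of all genes had a called positive slope. Gabrp turned: at a given ciliated level it was lower by 0.44 ± 0.07 per unit of Aoc1 (limma, adjusted p = 2.21e-07), where 26.4% of all genes had a called negative slope. Its own fit then called Aoc1, Acox2 and Bcl2l14 lower and none of the 5 higher, where 22.3% of all genes were called lower and 24.4% higher. Cldn10 had no called slope with Cxcl17, Aoc1 or Gabrp. With the leading component of all within-group differences, 28.6% of their variance, as the added covariate instead, Aoc1 rose with Cxcl17 by 0.59 ± 0.05 and Gabrp with Aoc1 by 0.25 ± 0.08 (limma, adjusted p = 0.0221).

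**Figure D4:**
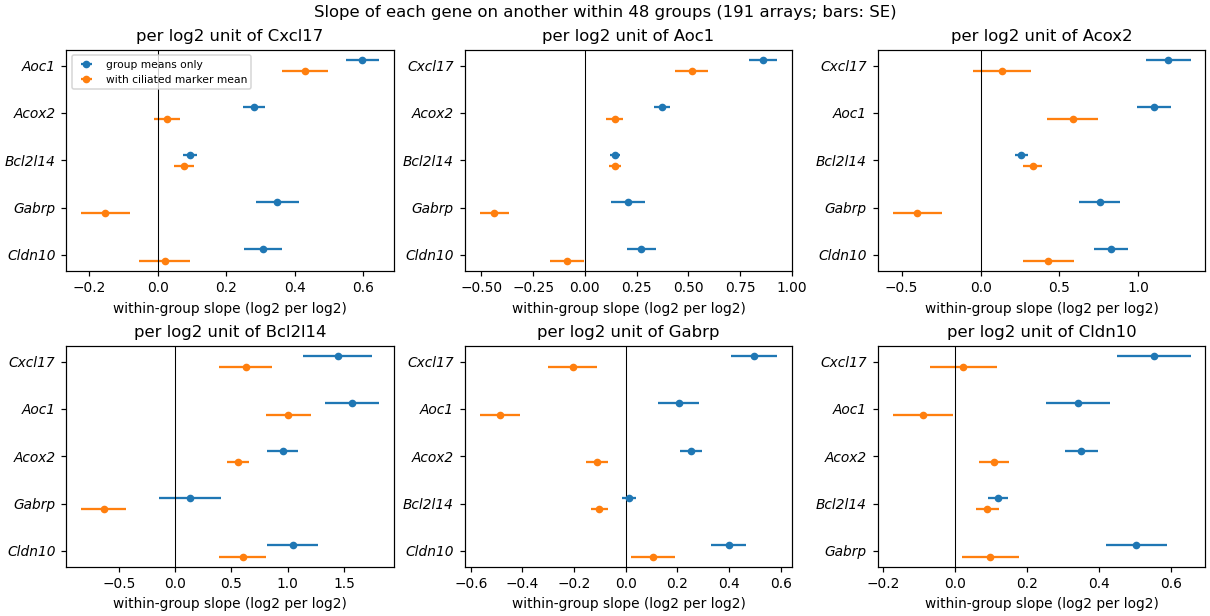
Within-group slope (horizontal axis, log2 per log2 unit, bars show SE) of each gene on another, 1 panel per covariate, over all arrays in 48 groups. Blue points are from the fit with group means alone and lie above 0, while with the ciliated marker mean added (orange) the Gabrp slopes on Cxcl17, Aoc1, Acox2 and Bcl2l14 lie below 0.

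The same markers moved with several exposures. With DBET 8 of 14 ciliated and 8 of 16 club cell markers were called higher, and the mean level of the ciliated list ran from 1.57 to 1.93 in DBET arrays against 1.13 to 1.41 in controls. With the ciliated mean as a covariate the DBET difference was 0.77 for Cxcl17 and 0.49 for Gabrp, against 1.52 and 1.10 without it. With BFUR 4 ciliated and 3 club cell markers were called higher, and the Cxcl17 difference went from 1.15 to 0.46. With TCPN 4 ciliated, 2 alveolar type 2 and 2 alveolar type 1 markers were called higher. There the covariate took Cxcl17 from 1.18 to 0.60, Aoc1 from 0.68 to 0.25 and Acox2 from 0.42 to 0.13. RNA integrity numbers were 9.4 to 9.6 in TCPN, against 6.7 to 7.5 in CCO5 and 8.4 to 8.8 in CCO6. With DCBZ 2 ciliated markers were called higher, and Acox2 went from 0.78 to 0.50. NAPD had no ciliated marker called and 13 of 15 NRF2 genes called higher, along with 4 of 9 B and plasma cell markers, and with the covariate its differences were 1.13 for Cxcl17, 1.23 for Aoc1 and 1.29 for Acox2. With NPTH-30, 1 ciliated marker was called higher, 4 club cell markers were called lower, 4 of 15 alveolar type 2 markers were called higher and 5 NRF2 genes were called higher. There the Gabrp difference moved from -1.12 to -1.57 with the covariate and that of Cxcl17 from 1.36 to 0.80. The part of cell content in these differences was not tested beyond these values.

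Over the 48 group means the genes fell into patterns that are given as a description, since treatment means were used in choosing them and the groups share batches. Acox2 followed the NRF2 list most closely, with Pearson r = 0.86, and Cxcl17, Bcl2l14 and Aoc1 followed it with 0.71, 0.70 and 0.66. Gabrp and Cldn10 had r = 0.03 and 0.23 with that list and 0.62 and 0.68 with the club cell list. The club cell list was not alone for Cldn10 when lists of other family genes were taken. Its r was 0.62 with claudins and tight junctions, 0.61 with peroxisomal fatty acid oxidation and 0.51 with CXC chemokines. It was 0.50 with the Bcl2 family, 0.45 with amine metabolism and 0.16 with GABA genes. With the ciliated list Cxcl17 had 0.76, Acox2 0.66, Aoc1 0.64, Bcl2l14 0.34, Cldn10 0.25 and Gabrp -0.007. Cxcl17 was thus closer to the ciliated list than to the NRF2 list, and Aoc1 was about as close to both. The genes most like Acox2 were Ces1g (r = 0.91), Gpx2, Cbr1, Txnrd1 and Gm19935, and those most like Bcl2l14 were Cbr1, Ces1g, Gpx2, Nqo1 and Bspry. Most like Cxcl17 were Gsto1 (r = 0.89), Lrrc51, Acox2, Cfap126 and Prr29. Most like Aoc1 were AU040972 (r = 0.88), Adh7, Sptssb, Gsto1 and Wfdc3. Gabrp was most like Pon1 (r = 0.76), Cyp4f15, Acpp, Slc16a11 and Mgat3, and Cldn10 most like Cckar (r = 0.84), Elapor1, 1810010H24Rik, Cyp4f15 and Reep6. Cxcl17 and Acox2 had r = 0.86 with each other, Gabrp and Cldn10 0.58, and Gabrp and Aoc1 -0.36.

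**Figure D5:**
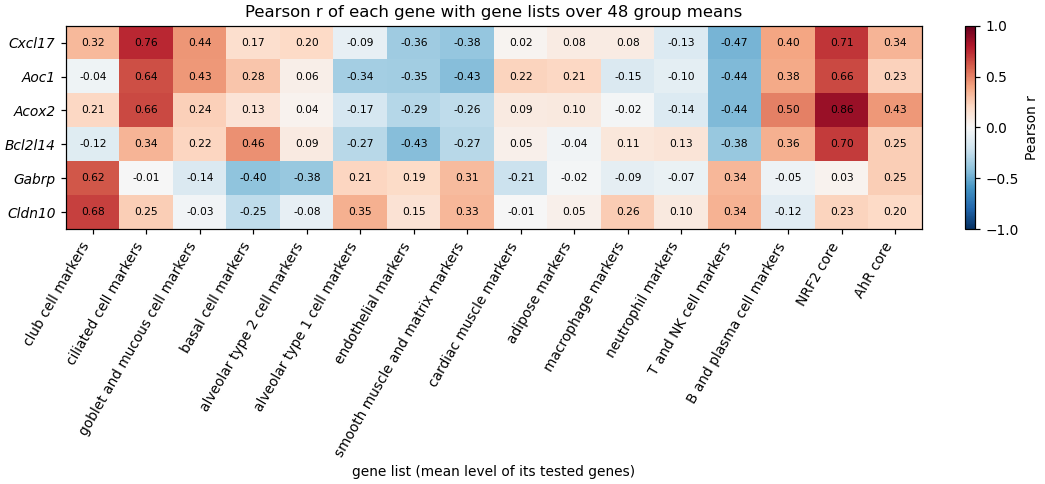
Pearson r (colour and number) of each of the 6 genes (rows) with the mean level of marker and pathway lists (columns) over 48 group means. Cxcl17, Aoc1, Acox2 and Bcl2l14 have r of 0.66 or more with the NRF2 list, and Gabrp and Cldn10 have 0.62 and 0.68 with the club cell list. Cxcl17, Acox2 and Aoc1 also have 0.76, 0.66 and 0.64 with the ciliated list. Lists of other family genes are not shown.

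Other genes of each family were counted from lists that leave out the 6 genes. Of 374 gene and group pairs of 11 other CXC chemokines, 4 were called higher (1.07%, against 1.86% of all pairs) and 2 lower. Cxcl12, a chemokine that retains stem and immune cells, rose with TFEL by 0.61 ± 0.15 (4 of 4 arrays, limma, adjusted p = 0.00561) and with IODO by 0.39 ± 0.15 (4 of 4 arrays, limma, adjusted p = 0.0442). Cxcl13, which attracts B cells, rose with VANP by 0.97 ± 0.22 (4 of 4 arrays, limma, adjusted p = 0.0241). Cxcl14 fell with coumarin (-0.63 ± 0.13, 4 of 4 arrays, limma, adjusted p = 0.00533), where Cxcl17 was higher.

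Of 14 other genes of amine and polyamine metabolism, 6 were called at least once, with 6 higher calls (1.26% of pairs) and 2 lower. Hdc, which makes the histamine that diamine oxidase degrades, rose with NPTH-30 by 0.86 ± 0.12 (4 of 4 arrays, limma, adjusted p = 9.77e-05). Hnmt, the histamine methyltransferase, rose with TCPN by 0.69 ± 0.15 (limma, adjusted p = 0.0129) and fell with IODO (-0.69 ± 0.18, limma, adjusted p = 0.00711), in 4 of 4 arrays each. Azin1, an inhibitor of antizyme, did the same, by 0.49 ± 0.14 and -0.47 ± 0.17 (limma, adjusted p = 0.0288 and 0.0344). With TCPN 7.73% of all genes were called higher and with IODO 15.6%, so calls in these groups were not particular to this family. The share of all genes called lower with IODO is not given here. Of 19 genes of peroxisomal fatty acid oxidation beside Acox2, 4 calls were higher and 4 lower of 646 pairs. Acoxl rose with VANP by 0.59 ± 0.12 (limma, adjusted p = 0.00667) and Cat, the catalase gene, with TCPN by 0.54 ± 0.15 (limma, adjusted p = 0.0421). Crot, the carnitine octanoyltransferase gene, fell with IODO (-0.56 ± 0.19, limma, adjusted p = 0.0229).

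Of 16 Bcl2 family genes, 10 calls of 544 pairs were higher (1.84%) and 4 lower. Bcl2l1, which encodes the survival factor Bcl-xL, rose with BBMP by 0.60 ± 0.15 and with MALA by 0.53 ± 0.15 (limma, adjusted p = 0.0128 and 0.0438), 2 groups in which Bcl2l14 was called higher. Both groups were set against the same 4 chow arrays of FCO2, so the rises are not independent. With BBMP 10.4% of all genes were called higher. Bik, a pro-apoptotic member, fell with MECL-3000 and MECL-4000 (-0.38 ± 0.07 in both, limma, adjusted p = 0.0221 and 0.0238). Bad rose with BBMP (0.31 ± 0.10, 4 of 4 arrays) and with IODO (0.30 ± 0.10, 3 of 4 arrays; limma, adjusted p = 0.0363 and 0.0264). Only 4 of 25 genes of GABA receptors and GABA handling passed the filter on low values. One call was made among them, Gabrb2 with coumarin (0.34 ± 0.08, limma, adjusted p = 0.00629), and the differences of largest size were -0.31 ± 0.11 for Gabbr1 with coumarin and -0.26 ± 0.07 for Slc6a13 with MECL-3000, neither called.

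Claudin and tight junction genes had 18 higher calls (2.65% of 680 pairs) and 6 lower. Cldn4, a barrier-forming claudin, rose with MALA by 0.58 ± 0.11, with NAPD by 0.55 ± 0.13 and with BBMP by 0.45 ± 0.11 (limma, adjusted p = 0.000407, 0.00538 and 0.0118), in 3 of 4, 3 of 3 and 3 of 4 arrays. MALA and BBMP share their chow controls, so their rises are not independent. Cldn2, a cation channel claudin, rose with NAPD by 0.72 ± 0.10 (limma, adjusted p = 5.01e-08) and with MALA by 0.31 ± 0.09 (limma, adjusted p = 0.0438). Tjp1, the scaffold ZO-1, rose with MACR by 0.95 ± 0.25 and TCPN by 0.88 ± 0.21 and fell with IODO (-0.63 ± 0.25; limma, adjusted p = 0.0312, 0.0154 and 0.0467). TCPN and IODO had 7.73% and 15.6% of all genes called higher. Cldn10 was called in none of these groups.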

How the data were processed

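Lung RNA was hybridized to Affymetrix mouse expression arrays, 1 array per sample, after RNAlater storage, Trizol extraction and RNeasy purification, per the labels' protocols. The deposited values of 45101 probe sets, in the authors' value table, run from -2.33 to 8.14 with array means near 0. They were taken as log2 expression, centred within each array. The base and the normalization are not given in the sources used here, so every fold change assumes base 2.

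Of the probe sets, 34958 name 1 gene, 932 several and 9211 none, by GEO's platform annotation. Each of 18194 genes was read from its probe set of highest mean, and 13524 passed the filter, a value above the overall median (-0.39) in at least 3 arrays. limma 3.58.1 in R 4.3.3 fitted 48 group means to all arrays with Benjamini-Hochberg adjustment over all genes tested. A gene was called where its adjusted p was under 0.05, in 1 direction, against every control set of the same vehicle and batch. Log2 differences are against the mean of those sets, weighted equally.

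Covariation fits added 1 gene's value as a covariate to the group means. All 6 genes stood above the overall median in every array. The members and the gene lists were chosen with earlier results of these data known. Genes were named by rule: the 5 genes of highest t statistic in each covariation fit, the 5 of highest Pearson r over group means, and up to 3 genes in each family list, by number of calls and then size of change. The fits were tested on simulated data. The number of arrays limits the precision. Alternatives were quantile normalization, no filter, averaged probe sets, a stricter threshold, other control weighting and left-out arrays.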

Additional observations from a re-analysis of the deposited data

Results flagged for a closer look

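In 11 of 252 gene and group sets of 4 or 5 arrays, 1 array stood apart from the rest by Dixon's criterion, and chance alone gives about 1 in 20. For Cxcl17 these were ACO1 replicate 2 at 2.07 (others 2.41 to 2.44), CCO4 replicate 4 at 1.80 (others 2.37 to 2.45), MECL-4000 replicate 3 at 2.81 (others 3.04 to 3.06) and TFEA replicate 4 at 2.75 (others 1.82 to 1.87). For Aoc1 they were ACO5 replicate 2 at 0.48 and CCO5 replicate 3 at 0.54. For Gabrp they were ACO5 replicate 3 at 2.34 and MECL-4000 replicate 1 at 1.81. For Cldn10 it was ACO4 replicate 4 at 2.57 (others 1.61 to 1.88), the highest of the 14 air controls used for both naphthalene calls. For Bcl2l14 it was NPTH-10 replicate 3 at 0.046 (others 0.18 to 0.20), and for Acox2 NPTH-20 replicate 3 at 1.17 (others 0.89 to 0.92).

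Each gene also had a pair of exposures whose arrays all lay on opposite sides of their control means. The gap between the log2 differences was 1.80 for Cxcl17 between DBET and NEDD, 2.12 for Aoc1 between NPTH-20 and VANP, and 2.22 for Gabrp between DBET and NPTH-30. It was 1.31 for Cldn10 between BFUR and NPTH-30, 0.32 for Bcl2l14 between NAPD and ETOX, and 1.54 for Acox2 between NAPD and VANP. These differences were not tested.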

How the results depend on the processing

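No paired analysis was possible because the labels give no replicate numbers that groups share. No called log2 difference of the 6 genes changed sign under any alternative run. Of their 42 calls, 38 were kept after quantile normalization, 38 without the filter, 39 with averaged probe sets, 42 against the mean of the control sets, 32 at an adjusted p under 0.01, and 26 when only the arrays of a contrast were fitted. Leaving out each of 96 arrays kept 29 of 41 calls every time. The iodoform call of Bcl2l14 was not among those covered.

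Counts of called groups moved as follows. Aoc1 had 7 higher with the contrast's arrays alone, and 1 lower against the mean of control sets. After quantile normalization Gabrp and Cldn10 had 2 higher each. Cldn10 had 6 lower against the mean of control sets and 1 at an adjusted p under 0.01. Bcl2l14 had 0 higher with the contrast's arrays alone and 3 at an adjusted p under 0.01. Leaving out a replicate number in every group gave 7 to 10 higher for Aoc1, 2 to 4 lower for Gabrp, 0 to 1 higher and 1 to 2 lower for Cldn10, 1 to 6 higher for Bcl2l14, and 3 to 5 genes called in the Aoc1 covariation fit.

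The fitted change of Cldn10 with methylene chloride was -0.37 with controls at 0 ppm. With naphthalene, Aoc1 gave 1.39 on log10 concentration and 1.60 with controls at 0 ppm, and Acox2 0.71 with controls at 0 ppm.

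Counts of the 5 other genes with a called positive slope, in batches 1, 2 and 3 alone, were 3, 0 and 2 for Cxcl17, 3, 1 and 2 for Aoc1, 0, 1 and 1 for Gabrp, 2, 3 and 1 for Cldn10, and 0, 2 and 2 for Acox2. The shares of all genes called in those batches were 10.8%, 0.858% and 2.01% for Cxcl17, 8.02%, 0.991% and 1.74% for Aoc1, 0%, 26% and 21.4% for Gabrp, 25.7%, 25.6% and 47.7% for Cldn10, and 0%, 8.75% and 4.81% for Acox2, so a low count is not read as lost covariation. For Bcl2l14 they were 1 in batch 1, 0 in batch 3 and 2 in control arrays, against 0.266%, 0% and 4.43%. Exposed arrays alone gave 3 for Aoc1, against 19.8%. With the ciliated mean added, chosen after the data were seen, counts were 1 for Cxcl17 (5.44% of all genes), 3 for Aoc1 (21.9%), 0 for Gabrp (24.4%), 2 for Cldn10 (54.3%) and 3 for Acox2 (37.7%).

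Slopes reversed with the ciliated mean added: Gabrp on Cxcl17 (-0.15), Aoc1 (-0.44), Bcl2l14 (-0.63) and Acox2 (-0.40), Cldn10 on Aoc1 (-0.085), Aoc1 on Cldn10 (-0.088), and Cxcl17 (-0.21), Aoc1 (-0.49), Bcl2l14 (-0.10) and Acox2 (-0.11) on Gabrp. In batch 2 the slope was -0.20 for Gabrp on Aoc1, -0.10 for Aoc1 on Gabrp, -0.011 for Bcl2l14 on Gabrp and -0.19 for Gabrp on Bcl2l14. In batch 3 the last 2 were -0.049 and -0.82, after quantile normalization -0.018 and -0.14, and with averaged probe sets -0.015 and -0.24.

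Family calls after quantile normalization were 10 lower for CXC chemokines, 13 higher and 8 lower for amine metabolism, 11 higher and 10 lower for peroxisomal oxidation, and 7 lower for the Bcl2 family. Without the filter they were 6 lower for CXC chemokines and 5 lower for GABA genes. With averaged probe sets they were 2 lower for peroxisomal oxidation and 0 higher for GABA genes. The cause of these changes was not tested. The called differences of Bcl2l14 were 0.27 at most, against a pooled SD of 0.08 among control arrays.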
